A study of Mus musculus with 13 samples.

Results

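The MHC class II antigen presentation genes were chosen by symbol: H2-Aa, H2-Ab1, H2-Eb1, H2-DMa, H2-DMb1, Cd74 and Ciita, 7 genes in all. In the liver expression table, which holds 11779 genes, 5 of them were found: H2-Aa, H2-Ab1, H2-DMa, Cd74 and Ciita. H2-Eb1 and H2-DMb1 were not among the rows analysed here. The liver RNA came from Balb/c mice collected 5 days after injection, 3 of them given a GalNAc-conjugated mix of 5 antisense oligonucleotides (ASOs) against the lncRNA LL35 (the group Liver LL35 ASO) and 3 given a GalNAc-conjugated ASO against firefly luciferase (Liver Luc ASO). GalNAc is a sugar that carries an oligonucleotide to hepatocytes, and firefly luciferase, the target of the control ASO, is not a mouse gene. The labels give 150 mg/kg as the dose of each ASO, while the methods describe the dose as that of the whole mix, so the amount per ASO is uncertain. The number of ASOs in the mix is that of the labels, and the paper's results also name 5 GalNAc conjugates for mice. The study's list of ASOs for mice, however, names fewer against LL35. The sources used here do not state the age or sex of these mice, and untreated livers were not analysed. The AML12 hepatocyte libraries of the series (4 LL35 ASO and 3 Luc ASO) were not analysed here.

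A class II molecule is a dimer of an alpha and a beta chain that displays peptides from engulfed proteins to CD4+ T cells. The invariant chain, encoded by Cd74, fills the groove of a new dimer, proteases of the endosome trim it, and H2-DM exchanges the remaining fragment for a peptide. Dendritic cells, B cells and macrophages are the best known carriers of class II. In liver, Kupffer cells and sinusoidal endothelial cells can carry it too, while resting hepatocytes carry little. CIITA is a coactivator that binds no DNA itself and acts through factors bound to the X and Y boxes of class II promoters.

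The values reported are levels. For each gene the authors deposited 1 mean normalized count over the compared liver libraries, LL35 and Luc together, with no value for a single mouse. The level in each group, its spread between mice and a difference between LL35 and Luc could therefore not be computed from this column, and no test between the groups was made. The sequencing depth is unknown, so neither counting intervals nor detection limits are given. The lowest mean normalized count in the table was 15.6 and the median was 235. For comparison between genes each mean was divided by the length in kilobases of all annotated exons of the gene (GENCODE release M21), here the count per kilobase, whose median over the table was 51.5.

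RefSeq promoter windows of 300 bases (250 before and 50 after a transcript start, build GRCm38.p6, C57BL/6J) were found for 4 of the 7 genes: H2-Aa, H2-Eb1, H2-DMb1 and H2-DMa, the last with 2 starts. The stretch from 120 to 21 bases before the start is shown for the 3 genes in which motifs of the X and Y region were found, because these boxes are the feature by which class II promoters are known. Capitals mark the X1 box, the CRE-like core TGACG of the X2 box and the Y box core ATTGG, each in either orientation. H2-Aa lies on the minus strand at chr17:34287844-34287943, H2-Eb1 on the plus strand at chr17:34305747-34305846 and H2-DMb1 on the plus strand at chr17:34153071-34153170, and all 3 are written 5′ to 3′ in the direction of transcription.
H2-Aa: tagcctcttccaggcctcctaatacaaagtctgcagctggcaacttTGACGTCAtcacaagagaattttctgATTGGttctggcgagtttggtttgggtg
H2-Eb1: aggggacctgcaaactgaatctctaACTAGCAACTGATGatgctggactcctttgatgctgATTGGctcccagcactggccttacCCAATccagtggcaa
H2-DMb1: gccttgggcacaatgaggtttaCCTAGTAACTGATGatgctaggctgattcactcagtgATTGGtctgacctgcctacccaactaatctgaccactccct

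An X1 box followed on the same strand by a Y box core was found in 2 of the 5 windows, those of H2-Eb1 and H2-DMb1. The X1 box was searched on both strands with up to 2 mismatches to its 14-letter consensus, and the Y core had to begin 10 to 30 bases after it. In H2-DMb1 the X1 box matched with 0 mismatches, started 98 bases before the transcript start and was separated from the Y core by 23 bases. In H2-Eb1 it had 1 mismatch, started 95 bases before the start and was separated from the Y core by 22 bases. This arrangement was present in 74 of 32851 RefSeq windows of the same length (0.225%), which include those of H2-Eb1 and H2-DMb1. The boxes searched for are those known from class II promoters, so the share only describes how common the pattern is. The H2-Aa window held a Y core starting 48 bases before the start and an overlapping pair of CRE-like cores (TGACG on either strand, sharing 2 letters) from 74 bases before it, and no X1 match by this rule. Neither H2-DMa window held an X1 match or a CRE-like core, and 1 of them held a Y core, 198 bases before the start. Cores this short are common: CCAAT on either strand was present in 37.4% of all windows and TGACG in 20.8%. H2-Eb1 and H2-DMb1, the genes with the X1 and Y pair, have no row in the liver table, so their promoter arrangement could not be set beside a level. Of the class II genes with a row, only H2-Aa and H2-DMa could be searched. H2-Ab1, Cd74 and Ciita had no promoter window, so whether they hold the pair was not tested.

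Cd74 had the highest level of the 5 genes. Its mean normalized count was 888, which is 529 per kilobase over 1679 exonic bases, and it ranked 762 among the table's genes by count per kilobase (percentile 93.5). The level of Cd74, which encodes the invariant chain, was 4.66 times that of H2-Aa and 5.44 times that of H2-Ab1 on this scale. Per kilobase of coding sequence, these ratios were 1.89 and 3.38. The direction was thus the same with either length, while the ratio to H2-Aa was smaller with coding length.

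H2-Aa and H2-Ab1 encode the alpha and the beta chain of the same dimer, I-A. The mean normalized count of H2-Aa was 431, or 113 per kilobase over 3798 exonic bases, at percentile 72.1. The mean normalized count of H2-Ab1 was 249, or 97.1 per kilobase over 2568 exonic bases, at percentile 68.5. Both chains thus lay above the table's median and close to each other. The ratio of H2-Aa to H2-Ab1 was 1.17 per kilobase of all exons and 1.79 per kilobase of coding sequence. It was 0.649 per kilobase of the longest transcript, which turned the order, and with no spread between mice these 2 neighbours cannot be separated. Balb/c mice carry other class II alleles than the C57BL/6J strain of the reference genome, and the effect of such differences on the alignment of H2-Aa and H2-Ab1 reads was not tested.

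H2-DMa encodes the alpha chain of H2-DM, the peptide exchange factor. Its mean normalized count was 41.8, or 12.1 per kilobase over 3448 exonic bases, at percentile 14.7 of the table. H2-Aa was 9.35 times and H2-Ab1 8.01 times as high per kilobase. The exons of H2-DMa share 360 bases (10.4%) with those of Brd2, a bromodomain gene on the opposite strand with a mean normalized count of 1741. The library kit keeps the strand of the RNA, but the strand setting of the counts is not given in the sources used here. The effect of this overlap on the H2-DMa value, in either direction, was not tested.

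Ciita, the coactivator gene of the family, was the lowest of the 5. Its mean normalized count was 35.2, or 3.70 per kilobase over 9535 exonic bases, at percentile 2.2. Cd74 was 143 times, H2-Aa 30.7 times, H2-Ab1 26.3 times and H2-DMa 3.28 times as high per kilobase. Per kilobase of coding sequence these ratios were 104, 55.1, 30.9 and 5.25. By mean normalized count they were 25.2, 12.2, 7.08 and 1.19, so their size depended on the length used. The mean normalized counts of Ciita and H2-DMa differed by only 1.19 times, so most of the gap between them on the per-kilobase scale came from the greater length of Ciita. Ciita shares 329 exonic bases (3.45%) with Dexi on the opposite strand, whose mean normalized count was 98.4.

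**Figure D1:**
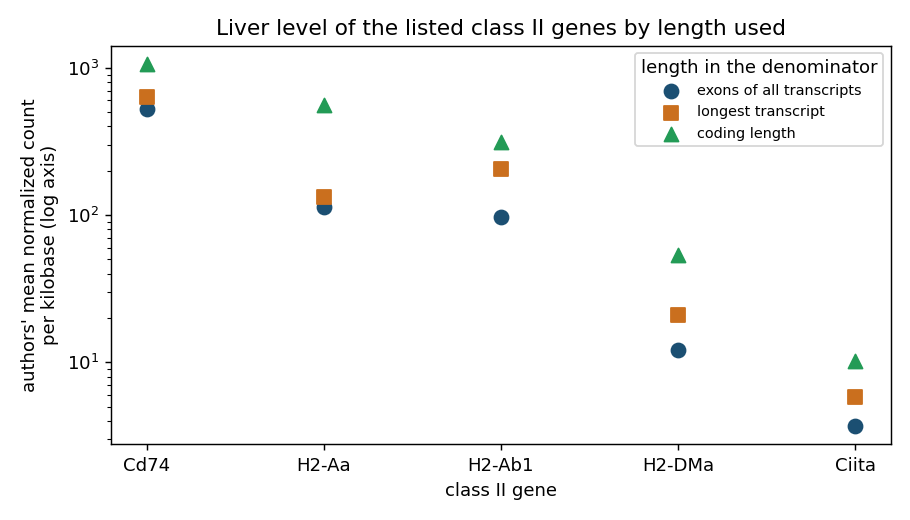
Liver level of the 5 listed class II genes, as the authors' mean normalized count per kilobase on a log axis, with 3 choices of length (circles, all exons; squares, longest transcript; triangles, coding length); each point is 1 pooled mean with no error. Cd74 was highest and Ciita lowest with each length, and H2-Aa and H2-Ab1 changed places with the longest transcript.

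**Figure D2:**
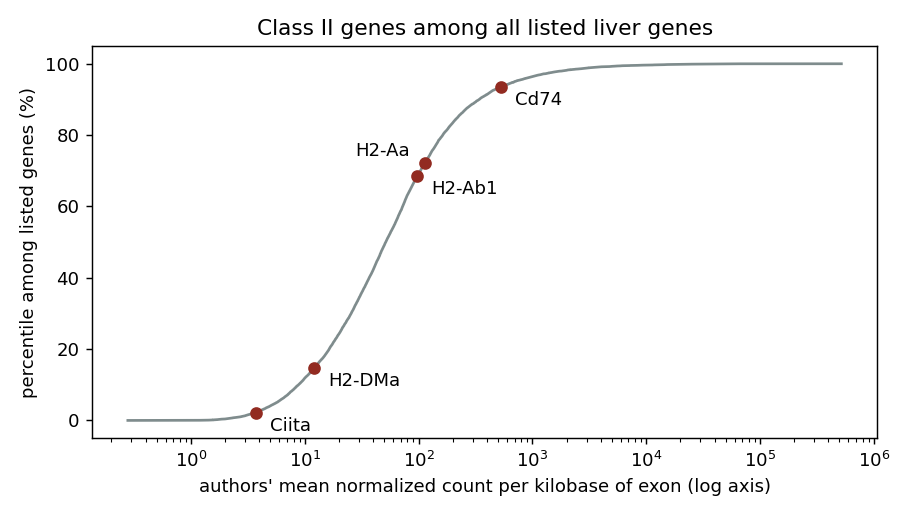
Cumulative share of listed liver genes by count per kilobase of exon (log axis), with the 5 class II genes as points. Cd74 sits at percentile 93.5, H2-Aa and H2-Ab1 at 72.1 and 68.5, H2-DMa at 14.7 and Ciita at 2.2.

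The other genes of the pathway were taken from a list of 35 gene symbols, of which 27 were in the table. None of the 6 other class II chain symbols (H2-Ea, H2-Ea-ps, H2-Eb2, H2-DMb2, H2-Oa and H2-Ob) was among the rows analysed. H2-Ea and H2-Ea-ps are names of the same gene, which is thus counted more than once in the 6 and in the 35. The regulators, in contrast, were listed in full, 13 of 13. They include Rfx5, Rfxap and Rfxank, the subunits of the RFX complex that binds the X1 box, and Nfya, Nfyb and Nfyc, the subunits of the NF-Y complex that binds the Y box. Rfx5 had 27.1, Rfxap 35.4 and Rfxank 19.9 counts per kilobase. Nfya had 32.6, Nfyb 43.8 and Nfyc 51.1 counts per kilobase. Each of the 13 regulators thus stood above Ciita and below Cd74, whichever length was used. Each also lay below H2-Aa with all exons and with coding length. With the longest transcript Irf1 was above H2-Aa, and by mean normalized count Creb1 (516) was above H2-Aa (431). Irf1, an interferon-induced factor that acts on Ciita, had 78.7 counts per kilobase. The interferon gamma receptor genes Ifngr1 and Ifngr2 had 97.8 and 71.0. Ifngr1 and H2-Ab1 (97.1) lay side by side on this scale, and their order depended on the length used. The number of regulators above H2-Ab1 was 1 with all exons, 3 with coding length and 0 with the longest transcript.

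Genes for the trimming of the invariant chain, for antigen processing and for the turnover of class II were all listed, 9 of 9. Their median was 383 counts per kilobase. Ctss encodes cathepsin S, the protease best known for the last step of invariant chain cleavage, and had 404 counts per kilobase. The level of Cd74 was 1.31 times that of Ctss. Ctsb, Ctsd and Ctsl, lysosomal cathepsins of most cells, had 1196, 726 and 553 counts per kilobase and lay above Cd74. With coding length 4 genes of this group were above Cd74, and with the longest transcript 2 were. Marchf1, a ubiquitin ligase that removes class II from the surface of antigen presenting cells, had 9.85 counts per kilobase, the lowest of the group, while the related Marchf8 had 104. Of the 3 costimulation genes, Cd86 had 10.7 counts per kilobase, near the level of H2-DMa, and Cd40 and Cd80 were not among the rows analysed.

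Class I molecules are carried by nearly all nucleated cells. Of the 4 class I pathway genes on the list, 3 (H2-D1, H2-K1 and B2m) stood above the class II dimer genes. H2-D1 and H2-K1, class I heavy chain genes, had 3452 and 2372 counts per kilobase. B2m, the light chain gene, had 11200. The level of H2-Aa was 0.0328 times and that of Cd74 0.153 times the level of H2-D1. Alleles of H2-D1 and H2-K1 also differ between Balb/c and the reference strain, and the effect on these values was not tested. Tap1, the peptide transporter gene, had 41.9 counts per kilobase and was the only class I gene of the 4 below H2-Ab1.

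The labelled tissue was checked against cell type markers. The 5 hepatocyte markers were all listed, between 5497 (Serpina1a) and 519843 (Alb, the albumin gene) counts per kilobase, and each was above every class II gene. Albumin had a mean normalized count of 1217472, the highest in the table. These levels are those of whole liver, in which fewer cells of a type and less RNA per cell cannot be told apart.

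Among the cells that can carry class II in liver, all 10 Kupffer cell and macrophage markers were listed, from 55.4 (Timd4) to 791 (Clec4f) counts per kilobase with a median of 211. Cd74 was above 8 of the 10, all but Clec4f and Cd5l, while H2-Aa and H2-Ab1 were each above 2, Timd4 and Adgre1. With coding length, 3 of these markers (Clec4f, Cd5l and Lyz2) were above Cd74, while H2-Aa was above 6 markers and H2-Ab1 above 5. The 6 sinusoidal endothelial markers were also all listed, from 41.4 (Lyve1) to 289 (Clec4g), with a median of 154. Cd74 was above all 6, and H2-Aa and H2-Ab1 were above 2 of them, Lyve1 and Pecam1. With coding length, H2-Aa and H2-Ab1 were each above 5 of the 6, so their place among the endothelial markers depended on the length used.

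Few markers of dendritic cells and B cells were in the table. Of 8 dendritic cell markers 2 were listed, Clec9a with 13.8 and Zbtb46 with 24.9 counts per kilobase. Itgax, Flt3, Xcr1, Cd209a, Ccr7 and Siglech were not among the rows analysed. Zbtb46 is also expressed by endothelial cells, so it does not mark dendritic cells alone. Of 5 B cell markers only Ighm was listed, with 26.6 counts per kilobase and a mean normalized count of 50.1, while Cd79a, Cd79b, Ms4a1 and Pax5 were not among the rows analysed. Cd74, H2-Aa and H2-Ab1 were above each of these 3 listed markers, whichever length was used, and Ciita was below each. Of the T and NK cell list 1 of 6 was listed (Cd3e, 4.56 counts per kilobase), of the cholangiocyte list 1 of 4 (Sox9, 9.94) and of the stellate cell list 4 of 4, with a median of 56.8. The share of each cell type in the class II level was not tested.

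**Figure D3:**
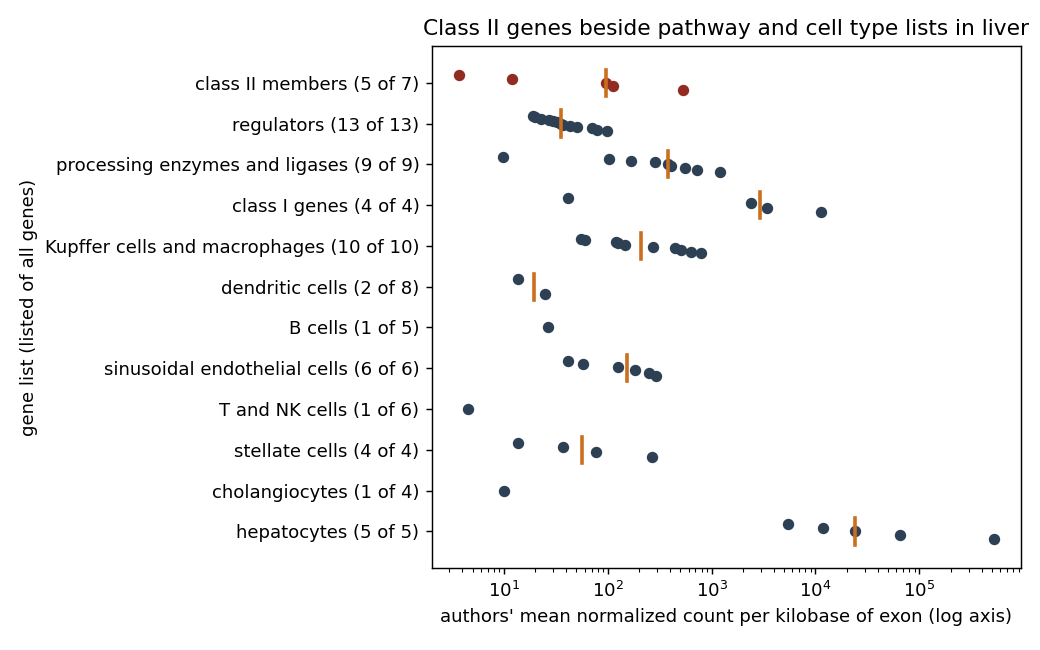
Count per kilobase of exon (log axis) of each listed gene in the class II set, 3 groups of pathway genes and 8 cell type lists, with the number listed of all genes in brackets; each point is 1 gene and the vertical bar is the median where 2 or more genes are listed. The class II genes span 3.70 to 529, from below the range of the Kupffer cell and macrophage markers (55.4 to 791) to within it.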

How the data were processed

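Liver RNA was isolated with TRIzol, depleted of rRNA and made into strand-specific libraries with the NEBNext Ultra II Directional kit. The authors aligned reads to the mouse genome (build not given in the sources used here) with STAR 2.5.3a, counted them on Ensembl genes and normalized the counts by the RLE method of DESeq2. The deposited value used here is a signal, the mean normalized count of a gene over the compared liver libraries. The table also holds the authors' own comparison of LL35 with Luc (fold change, its standard error, Wald statistic, p-value and adjusted p-value), which was not used. The table has no column for a single sample.

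Genes were matched to GENCODE M21 by Ensembl identifier, 11754 of 11779, for the length of all exons, the longest transcript and the longest coding sequence, the last taken from GENCODE because no protein table was used. Symbols listed more than once (6) were left out of the lists, and none was a class II gene. Length sums and motif search were tested on simulated data. Promoters were taken from the RefSeq table. Scripts ran under Python 3.11.15 with pandas 2.3.3, numpy 2.4.6 and matplotlib 3.10.9. All listed class II genes and all genes of the pathway and marker lists could be named, apart from 1 item that is not reported here. The genes and lists were chosen with earlier results of these data known.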

Additional observations from a re-analysis of the deposited data

How the results depend on the processing

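No paired analysis was possible because the table holds no value for a single mouse, and for the same reason no replicate could be left out. With coding length, the levels per kilobase were 1060 for Cd74, 561 for H2-Aa, 314 for H2-Ab1, 53.4 for H2-DMa and 10.2 for Ciita. With the longest transcript, they were 630, 134, 206, 20.8 and 5.87, and 1 pair (H2-Aa and H2-Ab1) stood in the opposite order. The other orders were the same with coding length, which leaves out the untranslated exons that also gave reads, and with the mean normalized count as deposited. By the mean normalized count, the percentiles were 82.5 for Cd74, 65.9 for H2-Aa, 51.7 for H2-Ab1, 13.0 for H2-DMa and 10.3 for Ciita. Among the 9923 genes with a mean of at least 50, they were 92.3 for Cd74, 67.1 for H2-Aa and 62.8 for H2-Ab1, while H2-DMa and Ciita fell under this minimum. With it, 26 pathway genes and 27 of the 30 listed markers remained. With 1 mismatch or, chosen after the data were seen, 3 mismatches in the X1 box, 2 windows held it with a Y core. In all windows the share was then 0.0335% and 1.33%.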

Other observations

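The table lists 18 genes whose symbol starts with H2-, the mouse MHC region, and H2-Aa, H2-Ab1 and H2-DMa are the class II genes among them. The others include liver-rich H2-Q10, which encodes a secreted class I molecule, with 929 counts per kilobase. H2-T23, the gene of the non-classical class I molecule Qa-1, had 110 counts per kilobase, between H2-Aa and H2-Ab1. With coding length it had 297, below both H2-Aa (561) and H2-Ab1 (314). H2-Q7 had 3.70, the lowest of the 18 and near the level of Ciita. Its mean normalized count was 15.8, close to the lowest listed (15.6) and below that of Ciita (35.2). With coding length H2-Q7 had 15.7, above Ciita (10.2). Class I genes of the H2-Q and H2-T groups are similar in sequence, and the effect of this on their counts was not tested.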
